A study of Mus musculus with 24 samples.

Results

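Genes for ubiquitin-conjugating (E2) enzymes were followed through erythroid differentiation by the places on their RNAs that bound proteins shielded from nucleases. The members were the 37 protein-coding genes of the mouse mm10 annotation whose symbol starts with Ube2, out of 21938 protein-coding genes. Only the symbol enters this rule, but the family was chosen with earlier results of these data known. Of the 37 genes, 30 carried a protected site in an exon at some day, and 30 carried one that lay wholly in an intron. No exonic site was listed for Ube2cbp, Ube2d2b, Ube2dnl1, Ube2dnl2, Ube2e2, Ube2ql1 and Ube2u. The symbol rule also takes in Ube2v1 and Ube2v2, which are E2-like proteins without the catalytic cysteine, and Ube2cbp, which encodes a protein that binds E2 enzymes.

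The cells were formaldehyde-crosslinked MEL cells, profiled by protein interaction profile sequencing (PIP-seq). MEL is a transformed murine erythroleukemia line that starts to mature along the erythroid path when grown in 2% DMSO. Cells were taken before treatment (day 0) and at day 2 and day 4 of treatment. At each day, 2 replicates were each divided over a nuclease that cuts single-stranded RNA (ssRNase, RNaseONE) and one that cuts double-stranded RNA (dsRNase, RNase V1), and digested with proteins present or after their removal. This gave 24 libraries in 12 groups of 2, all from the same line, with untreated day 0 cells as the control.

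A protein-protected site (PPS) is a stretch of RNA where the library digested with proteins held more reads than its protein-free counterpart. The deposited lists hold 1 merged set of PPSs per day, with a score, a strand and the names of the 4 call sets (2 nucleases by 2 replicates) that gave each PPS. Exonic coverage is used throughout as the percentage of a gene's exonic nucleotides that lay in a PPS on the same strand. The value of a replicate counts PPSs with at least 1 call of that replicate, from either nuclease. Both replicates of a day share merged coordinates, so their spread understates that between separate cultures, and no p-value was computed. A gene was called higher or lower between 2 days when all 4 pairs of replicates went the same way and the means differed by at least 5 percentage points. The share of all 9550 protein-coding genes with an exonic PPS that met the same rule is given as the background. Each day's libraries enter more than 1 comparison, so the comparisons between days are not independent.

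Ubiquitin is activated by an E1 enzyme, passed to the active-site cysteine of an E2 and then attached to a substrate with the help of an E3 ligase. The E2 often decides which kind of chain is built, and some E2s carry the ubiquitin-like proteins such as NEDD8 or ISG15 instead. Maturing red cells use the ubiquitin–proteasome system to remove surplus proteins, ribosomal proteins among them, while organelles are cleared mainly by autophagy. Ube2o, a large enzyme with both E2 and E3 activity, Ube2l6, the E2 for ISG15, and Ube2h, the E2 of the CTLH ligase, are known to become abundant in this lineage.

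PPSs of 20 to 40 nt, the size of a ribosome footprint, were left out. On the Ube2 genes this left 473 PPSs for day 0, 420 for day 2 and 518 for day 4, out of 114907, 119487 and 122038 in total. Before this filter the lists held 138689, 169575 and 152513 PPSs, so it took out the most at day 2. The lists do not carry the read depth of the libraries, and the study's read totals were not used here. Among the 12 call sets, the dsRNase set of day 2 replicate 2 was the smallest, with 14832 PPSs, and the ssRNase set of the same replicate the largest, with 73952. The dsRNase sets held 27862 and 32624 PPSs at day 0 and more at day 4, 54935 and 40195. For ssRNase these numbers were 56044 and 50995 at day 0 and 47625 and 48112 at day 4. The plus strand held 66.9% of PPSs in the ssRNase set of day 0 replicate 2 and 43.1% in that of day 4 replicate 2, against 50.3% to 52.0% in the other 10 sets. Erythroid markers (11 genes, among them the globins and Alas2) had a summed exonic coverage of 80.9 and 93.5 points in the replicates of day 0, 227 and 241 at day 2, and 422 and 305 at day 4. Of 10 markers of other blood cells, 8 were at 0 at every day and only Itga2b and Pf4, megakaryocyte genes, carried PPSs, while 5 markers of non-blood tissue were at 0.

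Sequences of PPSs from genes with changes described below are shown first. Each was read from the GRCm38 assembly at the coordinates of the PPS and is written 5′ to 3′ on the strand of the gene. Capitals mark nucleotides that also lay inside a PPS of another day, and lower case marks those in a PPS of the named day only. The first set holds coding and intronic PPSs of genes whose coverage was higher, or first seen in exons, at day 4.
Ube2o, day 4, coding, chr11:116541528-116541647, minus strand: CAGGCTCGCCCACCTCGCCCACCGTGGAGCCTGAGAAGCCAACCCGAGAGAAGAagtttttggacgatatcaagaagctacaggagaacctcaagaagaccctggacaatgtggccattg
Ube2o, day 4, coding, chr11:116541864-116541998, minus strand: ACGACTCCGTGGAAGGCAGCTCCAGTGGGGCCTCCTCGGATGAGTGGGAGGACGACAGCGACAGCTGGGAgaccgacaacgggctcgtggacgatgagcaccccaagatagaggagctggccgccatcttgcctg
Ube2l6, day 4, coding, chr2:84809016-84809149, plus strand: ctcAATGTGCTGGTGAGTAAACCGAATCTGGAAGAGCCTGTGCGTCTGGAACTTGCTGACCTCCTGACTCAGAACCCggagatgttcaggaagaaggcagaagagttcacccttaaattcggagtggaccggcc
Ube2r2, day 4, coding, chr4:41183265-41183324, plus strand: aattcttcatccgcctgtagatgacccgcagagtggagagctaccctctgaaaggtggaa
Ube2h, day 4, intronic, chr6:30300250-30300372, minus strand: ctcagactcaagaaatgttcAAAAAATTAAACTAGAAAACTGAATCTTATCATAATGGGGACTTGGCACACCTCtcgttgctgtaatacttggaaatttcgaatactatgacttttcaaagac
Of the 120 nt of the first Ube2o site, which was called by both nucleases in both replicates with a score of 30.48, 54 nt were protected at another day. For the second, 135 nt long, the number was 70 nt, for the Ube2l6 site 74 of 134 nt, and for the Ube2h intron 54 of 123 nt. No nucleotide of the Ube2r2 site lay in a PPS of another day.

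The second set holds PPSs of day 0 in genes whose coverage was lower at a later day. Over the whole CDS of Ube2q1, however, mean coverage was not lower, at 16.3% at day 0 and 17.1% at day 4.
Ube2q1, day 0, coding, chr3:89773865-89773984, plus strand: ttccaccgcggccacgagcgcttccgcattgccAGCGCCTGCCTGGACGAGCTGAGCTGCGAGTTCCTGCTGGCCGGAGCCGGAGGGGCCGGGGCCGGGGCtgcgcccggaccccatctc
Ube2w, day 0, intronic, chr1:16591839-16592001, minus strand: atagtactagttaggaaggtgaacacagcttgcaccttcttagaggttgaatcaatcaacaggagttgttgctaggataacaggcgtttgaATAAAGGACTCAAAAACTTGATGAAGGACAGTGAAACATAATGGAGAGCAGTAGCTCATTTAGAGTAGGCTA
Ube2n, day 0, coding, chr10:95541311-95541451, plus strand: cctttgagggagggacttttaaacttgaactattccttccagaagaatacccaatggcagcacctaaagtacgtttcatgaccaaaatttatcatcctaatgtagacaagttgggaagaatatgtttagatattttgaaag
Ube2b, day 0, coding, chr11:51991422-51991481, minus strand: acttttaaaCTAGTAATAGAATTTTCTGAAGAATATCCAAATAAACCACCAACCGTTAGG
The Ube2q1 site was 75.0% G and C and the Ube2b site 30.0%. None of the 141 nt of the Ube2n site lay in a PPS of day 2 or day 4, while 51 of the 60 nt of the Ube2b site lay in one of another day. For comparison, a coding site of Ube2v1 and an intronic site of Ube2k lay wholly in nucleotides protected at another day.
Ube2v1, day 4, coding, chr2:167617832-167617943, minus strand: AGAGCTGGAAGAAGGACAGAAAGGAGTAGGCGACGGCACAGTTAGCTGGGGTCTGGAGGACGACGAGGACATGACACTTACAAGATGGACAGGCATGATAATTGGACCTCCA
Ube2k, day 4, intronic, chr5:65591008-65591089, plus strand: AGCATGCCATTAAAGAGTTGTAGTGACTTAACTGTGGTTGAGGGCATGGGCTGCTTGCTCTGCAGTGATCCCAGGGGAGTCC

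Over the 30 Ube2 genes with an exonic PPS, the median exonic coverage was 6.19% and 5.43% in the 2 replicates of day 0, 3.54% and 3.27% at day 2, and 7.74% and 6.85% at day 4. Over all protein-coding genes the medians were 3.83% and 3.78%, 3.48% and 3.64%, and 4.28% and 3.58%. The Ube2 genes thus had their lowest coverage at day 2 in both replicates. The median change from day 0 to day 4 was 1.19 points for the Ube2 genes and 0.0684 points for all genes. For day 2 against day 0 the medians were -2.24 and -0.203 points, and for day 4 against day 2 they were 3.89 and 0.401 points. Split by strand, the median change from day 0 to day 4 was -0.0348 points for 17 plus-strand members and 2.85 points for 13 minus-strand members. Over all genes these medians were -0.100 and 0.522 points. The part of the 2 ssRNase sets with uneven strands in this was not tested. These values mix the amount of an RNA with the protection of each molecule, and the 2 cannot be told apart here, since RNA levels were not analysed.

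From day 0 to day 4, 4 of the 30 Ube2 genes were called higher, against a background of 13.4%, and 2 were called lower, against 11.3%. Those higher were Ube2o, Ube2l6, Ube2j1 and Ube2v1, and those lower were Ube2q1 and Ube2w. The number of higher calls was near the background. By strand, 2 of 17 plus-strand members were higher (background 10.7%) and 1 was lower (13.2%), and of 13 minus-strand members 2 were higher (16.2%) and 1 was lower (9.32%).

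**Figure D1:**
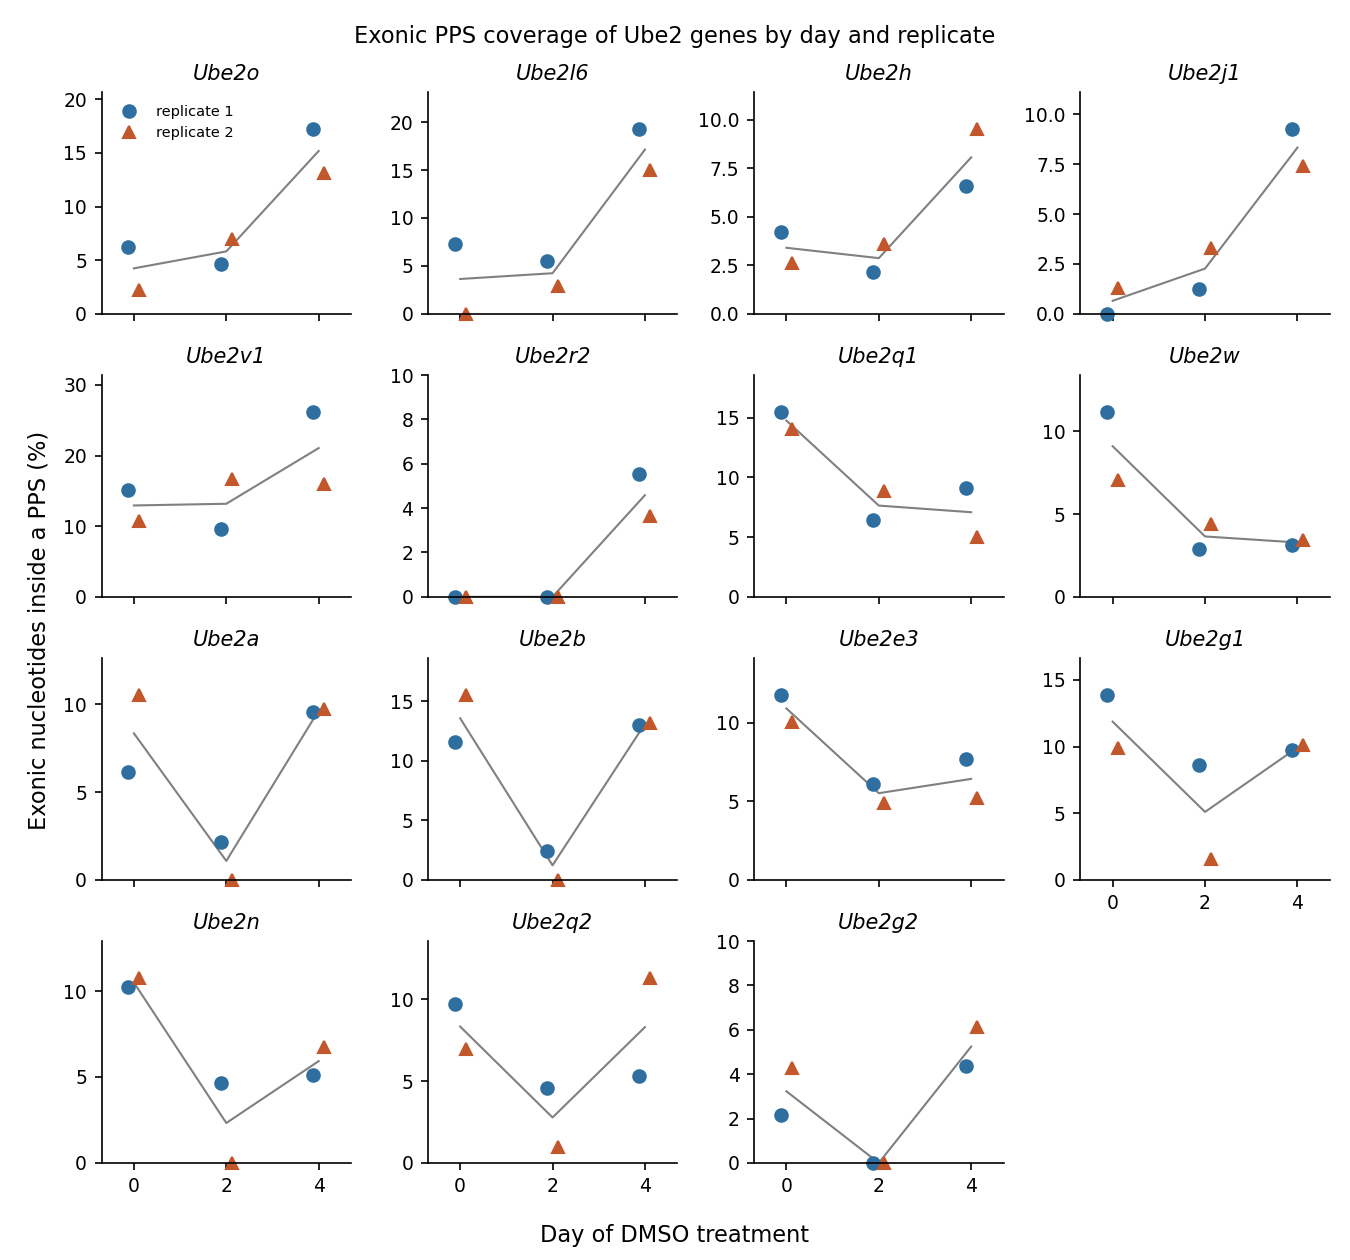
Exonic coverage (percent of exonic nucleotides in a PPS) of 15 Ube2 genes at day 0, day 2 and day 4. Circles are replicate 1, triangles are replicate 2 and the line joins the means of 2 replicates. Ube2o and Ube2l6 are above 13% in both day 4 replicates and below 8% in all others, and Ube2b is near 0 at day 2 only.

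Ube2o had the second largest rise of the family. The gene lies at chr11:116537740-116581447 on the minus strand. Its exonic coverage was 6.22% and 2.25% at day 0, 4.63% and 7.0% at day 2, and 17.2% and 13.1% at day 4. Both day 4 replicates were above the other 4, and the days 0 and 2 overlapped. The difference between day 4 and day 0 was 10.9 points and ran from 6.90 to 15.0 over the 4 pairs of replicates, and that between day 4 and day 2 was 9.36 points, also called higher. The rise was present with each nuclease. With ssRNase calls the values were 2.76% and 0.908% at day 0 and 14.6% and 9.78% at day 4, and with dsRNase calls 3.46% and 1.34% at day 0 and 10.5% and 7.60% at day 4. The 2 ssRNase sets with uneven strands bear on a minus-strand gene such as Ube2o, whereas the dsRNase sets held 51.1% to 51.6% plus-strand PPSs at all days.

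Most of the Ube2o RNA that was protected was coding. Of 16 exonic PPSs at day 4, 15 touched the coding sequence (CDS), and at day 0 all 8 did. CDS coverage was 8.39% and 3.08% at day 0, 6.16% and 9.58% at day 2, and 19.4% and 15.2% at day 4. The 3′ UTR went from 0.383% and 0% at day 0 through 0.536% and 0% at day 2 to 12.5% and 8.03% at day 4. The highest-scoring exonic PPS of Ube2o was found at day 2 in the CDS, chr11:116543482-116543536, with calls of all 4 sets and a score of 30.72. Intronic sites of the gene, 0 before treatment, numbered 5 after 2 days and 11 after 4 days. Both replicates had a call in 2 of the 5 and in 0 of the 11. The share of intronic nucleotides in a PPS changed by 0.799 points from day 0 to day 4, which was not called.

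Ube2l6, at chr2:84798828-84810335 on the plus strand, had the largest rise of the family. Coverage was 7.26% and 0% at day 0, 5.56% and 2.91% at day 2, and 19.3% and 15.0% at day 4. The replicates of day 0 differed widely, but both lay below both of day 4, with a difference of 13.5 points and a range over pairs from 7.72 to 19.3. Against day 2 it was 12.9 points, also called higher. With ssRNase the coverage was 3.71% and 0% at day 0 and 6.86% and 8.27% at day 4, and with dsRNase it was 3.56% and 0% at day 0, 0% in both replicates of day 2, and 12.4% and 6.71% at day 4. Over the CDS it was 26.3% and 0% at day 0, 0.543% in both replicates of day 2, and 40.6% and 34.6% at day 4. The site with the highest score, 34.85, was the CDS site printed above, called by dsRNase in both replicates.

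Ube2h, at chr6:30211289-30304539 on the minus strand, was not called higher in exons between day 0 and day 4. Coverage was 4.21% and 2.59% at day 0, 2.13% and 3.60% at day 2, and 6.59% and 9.52% at day 4. Every one of the 4 replicate pairs went up, but the mean difference of 4.65 points was just under the limit. Against day 2 the difference was 5.19 points and was called higher. With dsRNase calls alone, coverage was 2.24% and 2.59% at day 0, 0.397% and 1.84% at day 2, and 6.59% and 8.56% at day 4, which was called higher by 5.16 points. With ssRNase it was 1.97% and 0% at day 0 and 0% and 2.95% at day 4, and these ranges overlapped.

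The parts of the Ube2h RNA had different courses. All 9 exonic PPSs of day 4 touched the 3′ UTR, 8 of them with a dsRNase call, and the highest-scoring lay in the 3′ UTR at chr6:30211484-30211573 with a score of 27.09. The 3′ UTR coverage was 2.12% and 2.18% at day 0, 2.78% and 2.72% at day 2, and 8.58% and 12% at day 4. Coverage of the CDS was 22.4% and 8.01% at day 0, 0% and 13.1% at day 2, and 0% and 2.37% at day 4, and was called lower at day 4 than at day 0.

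The introns of Ube2h gained many sites. At day 0 only 2 PPSs lay wholly in its introns, at day 2 there were 8, and at day 4 there were 41. By replicate these numbers were 2 and 0, 3 and 6, and 21 and 26. Intronic coverage, the percentage of intronic nucleotides in a PPS, was 0.162% and 0% at day 0, 0.176% and 0.422% at day 2, and 1.52% and 2.22% at day 4, of 88471 intronic nucleotides. A gene was called in introns when all 4 pairs agreed and the means differed by at least 1 point, and Ube2h was called higher, by 1.79 points. The day 4 sites were found with both nucleases, with 15 and 19 holding a call of the 2 ssRNase sets and 10 and 8 a call of the 2 dsRNase sets. They were 16 to 144 nt long with a median of 62 nt, lay 2141 to 86893 nt from the 5′ end of the gene, and 31 of 41 lay nearer to that end than to the 3′ end. In 6 of the 41, both replicates had a call.

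**Figure D2:**
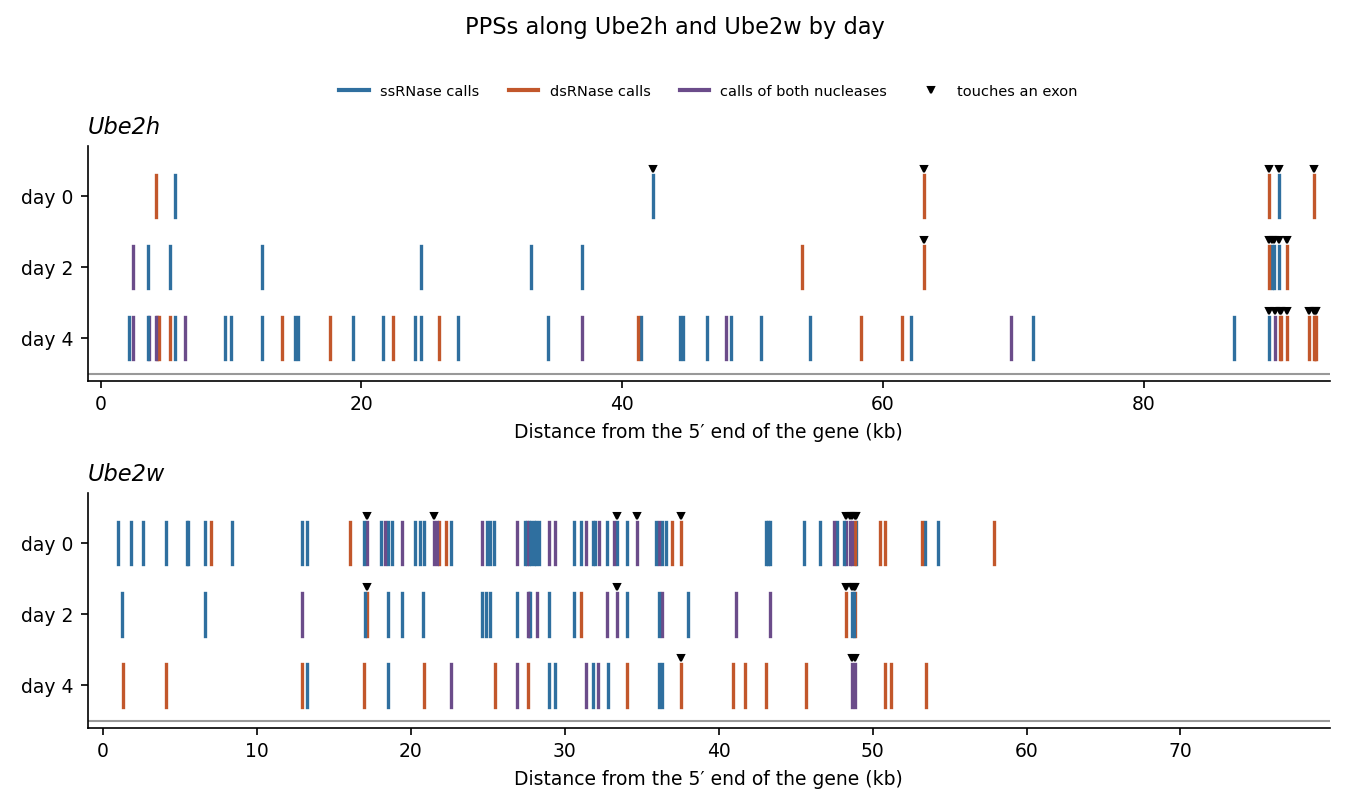
Position of every PPS along Ube2h and Ube2w at each day, as the distance in kb from the 5′ end of the gene. Colour gives the nuclease of the calls and triangles mark PPSs that touch an exon. Sites wholly in introns numbered 2, 8 and 41 in Ube2h and 67, 25 and 27 in Ube2w at day 0, day 2 and day 4.

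Ube2j1 and Ube2v1 were the other 2 members called higher at day 4. Ube2j1, an E2 anchored in the endoplasmic reticulum membrane that serves the degradation of misfolded proteins, had 0% and 1.30% at day 0, 1.22% and 3.31% at day 2, and 9.26% and 7.39% at day 4. The difference of 7.68 points ran from 6.09 to 9.26 over the pairs, and day 4 was also called higher than day 2, by 6.06 points. The call against day 0 was lost with calls of both replicates required, with a score of at least 10, with ssRNase calls only and over the CDS. Both replicates had a call in 2 of its 7 exonic PPSs of day 4. All 7 exonic sites of day 4 held a dsRNase call, and dsRNase coverage was 0% in both replicates at day 0 and 9.26% and 5.61% at day 4, while ssRNase gave 0% and 1.30% at day 0 and 0% and 1.78% at day 4. The 3′ UTR of Ube2j1 went from 0% and 1.91% at day 0 to 13.6% and 5.94% at day 4. Its highest-scoring exonic PPS, 18.52, lay there at chr4:33051458-33051520.

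Ube2v1, the inactive partner with which Ube2n builds chains linked through lysine 63, had 15.2% and 10.7% at day 0, 9.63% and 16.7% at day 2, and 26.2% and 15.9% at day 4. The lower replicate of day 4 lay only 0.772 points above the higher one of day 0, and the difference of means was 8.12 points. Without day 4 replicate 1 the gene was no longer called, and the gene shares 1673 of its 2721 exonic nucleotides with another gene on the same strand, without which it was not called either. With dsRNase the coverage was 15.2% and 10.7% at day 0 and 26.2% and 13.4% at day 4, and with ssRNase it was 4.74% in both replicates of day 0 and 0% and 6.65% at day 4. The CDS was densely protected at all days, at 55.0% and 40.8%, 28.5% and 52.8%, and 38.8% and 51.5%. The PPS with the highest score, 47.23, was found at day 2 at chr2:167617778-167617891.

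Ube2q1, a member of a less studied branch with an extended N terminus, had 15.5% and 14.0% at day 0, 6.42% and 8.86% at day 2, and 9.15% and 5.02% at day 4. All 4 later values lay below both of day 0. It was called lower at day 4, by a difference of -7.67 points with pairs from -10.5 to -4.89, and at day 2, by -7.12 points. The lower coverage came with ssRNase calls, 11.1% and 12.2% at day 0 and 2.05% and 2.34% at day 4, which was called lower. With dsRNase calls the values were 9.33% and 5.70% at day 0 and 7.10% and 4.08% at day 4, which overlapped. Ube2q1 lies on the plus strand, which held the larger share of the ssRNase set of day 0 replicate 2 (66.9%) and the smaller share of that of day 4 replicate 2 (43.1%), and the part of this imbalance in the result was not tested. Its highest-scoring PPS, 43.07, was found at day 0 in a non-coding exon at chr3:89775108-89775349. Of its 17 exonic PPSs of day 0, 1 touched the 5′ UTR, 4 the CDS and 5 the 3′ UTR. Counted over the CDS alone, the difference between day 4 and day 0 was 0.829 points. Over the exons of the transcript with the longest CDS, Ube2q1 was not called lower at day 4.

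Ube2w, which attaches ubiquitin to the N terminus of proteins, had 11.2% and 7.04% at day 0, 2.90% and 4.40% at day 2, and 3.16% and 3.41% at day 4. Both later days were called lower than day 0, with differences of -5.46 points at day 2 and -5.82 points at day 4. Without day 0 replicate 1, day 4 was no longer called lower than day 0. The call was also lost with calls of both replicates required and with a score of at least 10. Neither nuclease alone reached the limit, at -4.90 points with ssRNase calls and -3.92 points with dsRNase calls, although all 4 pairs were lower with each. The CDS held 32.4% and 14.8% at day 0, 9.59% and 2.74% at day 2, and 7.61% and 0% at day 4. The exonic PPS with the highest score, 23.62, was found at day 0 in the 3′ UTR at chr1:16570933-16570990. The introns of Ube2w were called lower at day 4 too, going from 6.52% and 5.14% at day 0 to 1.30% and 1.79% at day 2 and 1.13% and 1.35% at day 4. Its intronic PPSs went from 67 to 25 and 27, and those with calls of both replicates from 31 to 9 and 3.

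Ube2r2, a partner of cullin-RING ligases, was singled out after its values were seen, since it was listed at 0% in all 4 replicates of day 0 and day 2 and at 5.54% and 3.63% at day 4. The difference of 4.58 points was below the limit for a call. All 5 of its exonic PPSs at day 4 held a dsRNase call and 1 held an ssRNase call too, so that ssRNase coverage was 0% and 2.20% at day 4. Its CDS coverage at day 4 was 9.94% and 8.4%. The highest-scoring, 26.68, lay in the 3′ UTR at chr4:41191515-41191606. Wholly intronic PPSs of Ube2r2 were listed at every day, 4 at day 0, 10 at day 2 and 8 at day 4.

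**Figure D3:**
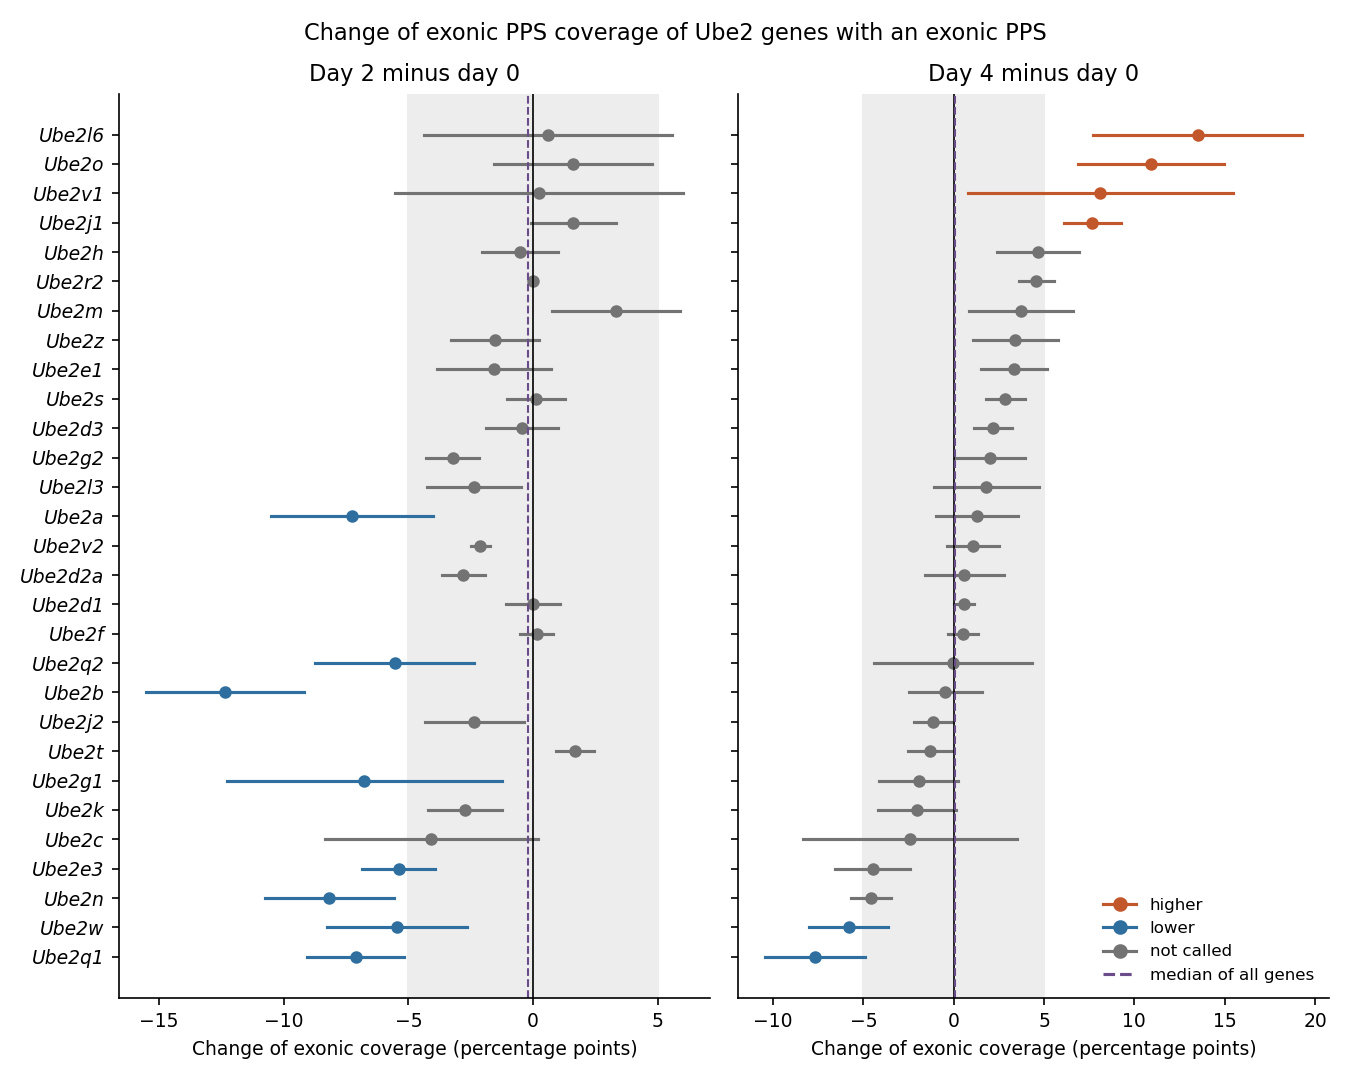
Change of exonic coverage in percentage points for 29 Ube2 genes, day 2 minus day 0 and day 4 minus day 0. Points are differences of the means of 2 replicates, bars are the range over the 4 pairs of replicates, the grey band is ±5 points and the dashed line is the median of all genes. Ube2l6 and Ube2o lie farthest to the right at day 4, at 13.5 and 10.9 points, and Ube2b farthest to the left at day 2, at -12.3 points.

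At day 2, 8 of the 30 Ube2 genes were called lower than at day 0, against a background of 13.6%, and 0 were called higher, against 5.61%. Many genes start too low to fall by 5 points. Among genes with at least 5% at day 0 the background was 32.1%, beside 8 of 16 Ube2 genes. The 8 were Ube2a, Ube2b, Ube2e3, Ube2g1, Ube2n, Ube2q1, Ube2q2 and Ube2w. At day 4, 9 Ube2 genes were called higher than at day 2, against 15.1%, and 0 were called lower, against 4.99%. They included Ube2a, Ube2b, Ube2g2, Ube2h, Ube2j1, Ube2l6, Ube2o and Ube2q2. The dip was seen with dsRNase calls. With these, the median change of the Ube2 genes was -2.09 points from day 0 to day 2 and 3.22 points from day 2 to day 4. Over all genes the dsRNase medians went the same way, at -0.395 and 0.749 points. For ssRNase calls the median change from day 0 to day 2 was 0.00856 points, and 0.18 points over all genes. The dsRNase set of day 2 replicate 2, the smallest of all, moves with this result, and its part was not tested. Without that replicate 6 genes were lower at day 2 and the median change was -2.82 points. Without day 0 replicate 1 the number was 5 genes and the median -1.34 points. With PPSs of all lengths, 7 genes were lower at day 2 and the median change was -1.27 points. Shares of all genes under these settings are not given.

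Ube2b and Ube2a, the 2 mammalian Rad6 proteins of DNA damage tolerance and histone H2B ubiquitination, fell and came back. Ube2b had 11.6% and 15.5% at day 0, 2.45% and 0% at day 2, and 13.0% and 13.2% at day 4. The day 2 replicates lay far below the other 4, with differences of -12.3 points from day 0 and 11.9 points to day 4. Ube2a had 6.16% and 10.5%, 2.16% and 0%, and 9.55% and 9.73%. The difference was -7.26 points between day 2 and day 0 and 8.56 points between day 4 and day 2. Both genes had this course with dsRNase calls, at 11.6% and 15.5%, 2.45% and 0%, and 10.5% and 13.2% for Ube2b. For Ube2a these were 6.16% and 8.63%, 2.16% and 0%, and 9.55% and 7.31%. With ssRNase calls Ube2b had 0% and 3.48% at day 0, 0% in both replicates of day 2, and 2.73% and 9.17% at day 4, and Ube2a had 0% and 1.89%, 0% in both, and 0% and 2.42%. Within Ube2b the CDS went from 25.0% in both replicates of day 0 to 12.7% and 0.877% at day 4, which was called lower. Its 3′ UTR had 11.2% and 18.2% at day 0, 0% in both replicates of day 2, and 18.4% and 23.2% at day 4, so that the parts of this RNA did not move alike. The highest-scoring exonic PPSs were found at day 4, at chrX:36883630-36883736 in the 3′ UTR of Ube2a (29.05) and at chr11:51988697-51988814 in Ube2b (36.22), where 4 of 118 nt were coding and 114 intronic.

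Ube2n, which makes chains linked through lysine 63, had 10.2% and 10.8% at day 0, 4.64% and 0% at day 2, and 5.09% and 6.75% at day 4. It was called lower at day 2, with a difference of -8.17 points, and both day 4 values lay below day 0, but the difference of -4.57 points missed the limit. Its CDS was protected over 42.5% in both replicates of day 0, 11.8% and 0% at day 2, and 12.7% and 21.1% at day 4, and was called lower at day 4. The strongest site was the day 0 CDS site printed above, with a score of 22.1. Ube2e3, of a family close to Ube2d, had 11.8% and 10.1%, 6.13% and 4.92%, and 7.68% and 5.19%. It was called lower at day 2, with a difference of -5.4 points, yet its top site, 20.64, was found at day 2, in the CDS at chr2:78870483-78870585. CDS coverage was 0% and 15.6% at day 0, 16.3% in both replicates of day 2, and 11.8% and 0% at day 4, whereas the 3′ UTR had 19.6% and 22.6%, 9.11% and 4.83%, and 21.3% and 18.4%.

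Ube2g1 and Ube2g2 build chains linked through lysine 48. Ube2g1 had 13.9% and 9.87% at day 0, 8.63% and 1.57% at day 2, and 9.74% and 10.1% at day 4, and was called lower at day 2, with a difference of -6.77 points. Ube2g2 had 2.18% and 4.28%, 0% in both replicates of day 2, and 4.36% and 6.13%, and was called higher at day 4 than at day 2 by 5.24 points. Ube2q2, the paralog of Ube2q1, had 9.69% and 6.97%, 4.60% and 0.952%, and 5.30% and 11.3%. It was called lower at day 2 (-5.55 points) and higher at day 4 than at day 2 (5.52 points). The top exonic PPSs were at chr11:72683613-72683785 for Ube2g1 (34.71, 3′ UTR, day 4), at chr10:77644898-77644948 for Ube2g2 (13.5, 3′ UTR, day 0) and at chr9:55195367-55195426 for Ube2q2 (15.17, day 4).

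By mean exonic coverage over the 3 days, Ube2v1 was among the highest at 15.7%, followed by Ube2q1 at 9.83%, Ube2b at 9.30% and Ube2g1 at 8.96%, and these last 3 overlapped in their replicate values. The 15 members not named by their calls or level had means from 0.728% to 8.70% and changes from day 0 to day 4 of -2.42 to 4.58 points. Among them the 6 replicate values of Ube2d3 ran from 7.11% to 10.3%, while Ube2k ran from 5.77% to 9.98% and Ube2j2 from 5.67% to 10.0%. Lowest were Ube2d1, at 0% to 1.10%, and Ube2f, at 0% to 1.33%. Ube2t, the E2 of the Fanconi pathway, had 0% to 3.41%, and Ube2c, of mitotic exit, 0% to 8.35%.

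Grouped by role, the changes were spread over the family. The backgrounds for day 4 against day 0 given above, 13.4% higher and 11.3% lower, and the median change of all genes, 0.0684 points, apply to each group. Of the 3 members known from erythroid maturation, 2 were higher in exons at day 4, with a median change of 10.9 points, and all 3 were higher with dsRNase calls (background 9.28%). Among 6 members of mitosis and DNA repair (Ube2c and Ube2s, the E2s of the anaphase-promoting complex, Ube2t, Ube2a, Ube2b and Ube2w), 0 were higher and 1 was lower, with a median of -0.881 points. Of the Ube2d and Ube2e families, E2s that work with many E3 ligases, 5 of 9 carried an exonic PPS, 0 were called and the median was 0.597 points. The 3 members for chains through lysine 63 gave 1 higher and a median of 1.07 points, and the 6 for chains through lysine 48 and degradation at the endoplasmic reticulum gave 1 higher and 0.446 points. The 4 members for ubiquitin-like proteins (among them Ube2m and Ube2f for NEDD8, and Ube2z, which works with Uba6) gave no call and 2.71 points. Of the remaining 6 members, 3 carried an exonic PPS and 1 was lower, with a median of -0.0348 points.

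Coding nucleotides alone gave more calls than whole exons. Over the CDS, 10 of the 30 Ube2 genes were called higher at day 4 than at day 0, against a background of 21.9%, and 8 were called lower, against 19.1%. Those higher were Ube2a, Ube2d1, Ube2e1, Ube2g1, Ube2g2, Ube2l3, Ube2l6, Ube2o, Ube2r2 and Ube2s. Those lower were Ube2b, Ube2d3, Ube2h, Ube2j2, Ube2n, Ube2q2, Ube2v2 and Ube2w. The limit stayed at 5 points, so that in a short CDS part of 1 PPS was enough for a call. Ube2d1 was called on 1 PPS with 39 coding nt, in a CDS of 441 nt. Ube2s, which elongates chains on substrates of the anaphase-promoting complex, had a CDS coverage of 0% and 6.80% at day 0, 10.6% and 7.68% at day 2, and 28.0% and 20.7% at day 4, with no overlap between day 4 and the other days.

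In the introns, 6 of the 30 Ube2 genes with an intronic PPS were called higher at day 4 than at day 0, against a background of 9.61%, and 3 were called lower, against 10.7%. The median change was 0.154 points, and 0 over all genes. Beside Ube2h, those higher were Ube2v1, Ube2b, Ube2d3, Ube2j1 and Ube2l6. Ube2v1 had 0.676% and 0% at day 0, 1.05% and 2.00% at day 2, and 3.84% and 3.19% at day 4. Ube2b had 1.10% and 1.64%, 3.96% and 5.30%, and 4.73% and 3.42%, so that its introns were above day 0 at day 2, when its exons were at their lowest. Ube2d3 had 4.49% and 1.17%, 2.81% and 6.45%, and 6.70% and 6.27%. Ube2j1 had 0% and 0.494%, 0.689% and 0.362%, and 1.56% and 0.942%, and Ube2l6 had 0% in both replicates of day 0, 0.610% and 0%, and 1.64% and 0.442%. These last 2 rest on 5 and 3 intronic PPSs at day 4.

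Beside Ube2w, those lower in introns were Ube2e3 and Ube2c. Ube2e3 had 1.48% and 1.85% at day 0, 0.957% and 0.824% at day 2, and 0.412% and 0.394% at day 4, with 17, 11 and 8 intronic PPSs. Ube2c, an E2 of mitotic exit, had 0.996% and 1.22%, 0% and 2.10%, and 0% in both replicates of day 4. Its day 0 value rests on 1 wholly intronic PPS of 53 nt and on the intronic ends of PPSs that touch an exon. Ube2k, which builds chains through lysine 48, had the highest mean intronic coverage, 7.26%. Its values were 7.21% and 8.64% at day 0, 6.78% and 7.15% at day 2, and 7.51% and 6.29% at day 4, with 65, 66 and 68 intronic PPSs, and the days overlapped. Ube2d3 followed at 4.65%.

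The 2 nucleases contributed unequally to the Ube2 genes at day 4. In replicate 1 of day 4, the mean exonic coverage over the 30 genes was 2.96% with ssRNase calls and 7.38% with dsRNase calls, and dsRNase was higher in 25 of 30 genes. In replicate 2 these values were 3.81% and 4.97%, and dsRNase was higher in 16 of 30. At day 0 the means were 3.86% and 4.44% in replicate 1 and 3.02% and 4.54% in replicate 2. At day 2 they were 2.50% and 2.34% in replicate 1 and 3.30% and 1.78% in replicate 2, the only replicate in which ssRNase was higher in most of the 30 genes (18). Over all genes ssRNase was higher in 68.3% in that replicate and in 30.0% to 43.7% in the other 5. With ssRNase calls, 2 Ube2 genes were higher at day 4 than at day 0 (background 7.19%) and 1 was lower (6.9%). With dsRNase calls, 4 were higher (9.28%) and 0 were lower (6.16%). Both dsRNase sets of day 4 were larger than both of day 0, and the part of this in the rises with dsRNase calls was not tested.

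**Figure D4:**
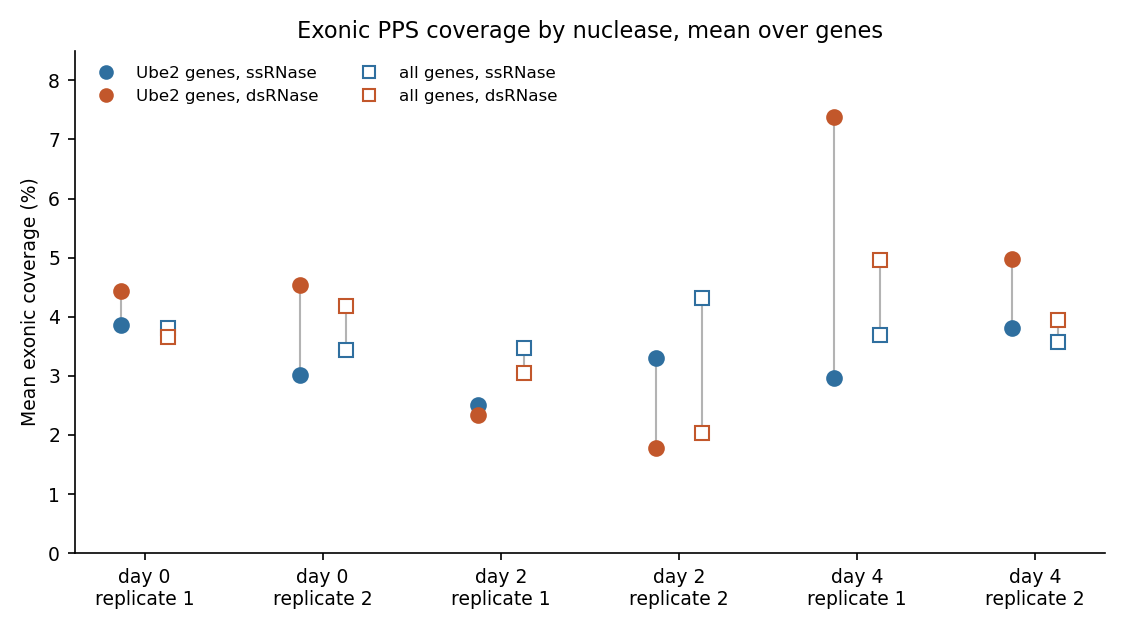
Mean exonic coverage (percent) over 30 Ube2 genes and over all protein-coding genes, from ssRNase calls and from dsRNase calls, in each replicate of each day. The dsRNase mean of the Ube2 genes is highest in day 4 replicate 1, at 7.38%, and lowest in day 2 replicate 2, at 1.78%.

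By transcript class, the CDS was touched by 16.1% of 473 Ube2 PPSs at day 0 (Wilson 95% interval 13.0 to 19.6), 14.5% of 420 at day 2 (11.5 to 18.2) and 16.8% of 518 at day 4 (13.8 to 20.3), against 38.5%, 34.6% and 36.2% over all genes. Of the exonic nucleotides of the Ube2 genes 15.9% are coding, against 37.5% over all genes. The 3′ UTR was touched by 22.8%, 18.6% and 25.3% of Ube2 PPSs and by 21.0%, 18.1% and 22.3% of all. Introns were touched by 54.5%, 58.8% and 54.4%, against 47.6%, 52.3% and 49.0%. These intervals cover counting error only, and PPSs of 1 gene are not independent. Ube2 PPSs in exons were 44.3%, 46.5% and 44.1% G and C at the 3 days, beside 45.2% in their whole exons.

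Exonic sites of the Ube2 genes were compared between days by position. When PPSs of the 3 days that overlapped by 1 nt or more were joined, the 660 exonic Ube2 PPSs formed 375 regions, of which 69 (18.4%) were found at all 3 days. At day 0 alone there were 69 (18.4%), at day 2 alone 39 (10.4%) and at day 4 alone 83 (22.1%). Over all protein-coding genes, 108607 regions gave 16.0% at all 3 days, and 19.4%, 16.8% and 19.9% at only the first, the middle or the last day. Both replicates had a call in 30.6%, 29.9% and 40.9% of the exonic Ube2 PPSs of the 3 days, against 32.3%, 32.2% and 38.4% over all genes. The regions called in both replicates at every day numbered 12, among them 5 in Ube2d3 and 1 each in Ube2v1, Ube2s, Ube2e1 and Ube2v2.

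Of 79 other genes of the pathway in 7 lists, 69 carried an exonic PPS, 18 were called higher at day 4 than at day 0 and 7 lower, beside the background of 13.4% and 11.3% given above. The lists were drawn up by hand with earlier results of these data known. The CTLH ligase, with which Ube2h works, had the most calls in 1 direction, with 6 of 11 genes higher, 0 lower and a median change of 5.46 points. Ranbp10 went from 1.63% and 0.855% at day 0 to 34.1% and 28.6% at day 4, Rmnd5a from 6.53% and 6.99% to 30.0% and 32.7%, and Wdr26 from 9.93% and 8.22% to 25.3% and 26.4%. Of these 6 genes 5 lie on the minus strand, and with dsRNase calls alone 4 of 11 were higher. The E1 enzymes gave 3 higher and 0 lower of 8, and Uba7, the E1 that loads ISG15 onto Ube2l6, went from 22.7% and 18.3% to 42.3% and 42.0%. The anaphase-promoting complex and its regulators, partners of Ube2c and Ube2s, gave 0 higher and 3 lower of 16, with Cdc20 from 16.1% and 22.5% to 2.46% and 5.89%.

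Ubiquitin and its relatives gave 3 higher and 1 lower of 9, and Sumo2 went from 9.33% and 7.95% to 27.1% and 26.4%. The cullin-RING core gave 3 higher and 2 lower of 12, led by Rnf7, which pairs with Ube2f, at 13.1 points. E2 enzymes without the Ube2 prefix gave 1 higher and 1 lower of 5, among them Cdc34, the relative of Ube2r2, at -7.79 points. The list of erythroid ligases and deubiquitinases, which also held Xpo7, a nuclear export receptor, gave 2 higher and 0 lower of 8, which were Trim10 at 21.4 points and Fbxo7 at 6.15 points.

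**Figure D5:**
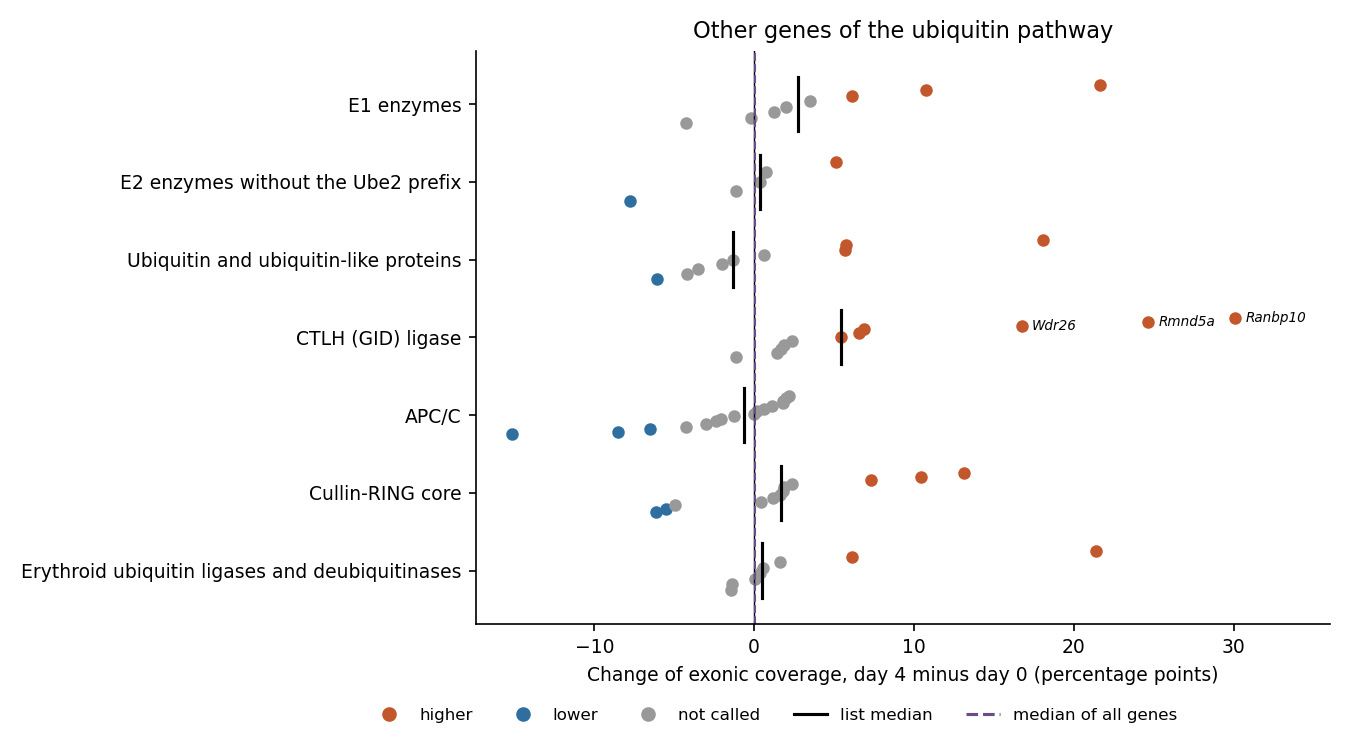
Exonic coverage at day 4 minus that at day 0, in percentage points, for genes of 7 lists of the ubiquitin pathway that carried an exonic PPS. Each point is 1 gene, as the difference of the means of 2 replicates. The CTLH ligase has 6 genes called higher and 0 lower, and the anaphase-promoting complex 0 higher and 3 lower.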

How the data were processed

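PIP-seq was run on 24 libraries of MEL cells (2 replicates, 2 nucleases, with and without proteins, at 3 days), and samples were grouped by their titles. The authors trimmed reads with cutadapt 1.2.1 and aligned them to mm10 with TopHat2 2.0.10, per the submitters' processing notes. PPSs were then called with a modified CSAR (Poisson test at a false discovery rate threshold) and merged into 1 list per day. Each deposited PPS carries the authors' score, whose scaling between libraries is not stated in the sources used here. The lowest score was 5.4, and PPSs of 2 calls started at 10.8, as a sum of calls would. The lists do not carry the depth per library, and read totals were not used here.

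Call names of each PPS were matched to day, nuclease and replicate, giving 12 call sets. PPSs of 20 to 40 nt were left out, as the study did with ribosome-sized sites. All PPS ends lay within the 21 GRCm38 chromosomes. Coverage was counted over the joined exons, CDS, UTRs or introns of each gene, on the same strand. Introns exclude exons of any same-strand gene. Pathway lists, role groups and markers were listed by hand. Members and lists were chosen with earlier results of these data known. Named genes were Ube2o, Ube2l6 and Ube2h, every Ube2 gene called between days, the 5 highest in exonic and the 3 highest in intronic coverage, and at most 3 called genes of a pathway list. A further member is not reported here by name or value and stays only in the counts and medians. Ube2r2 and genes named from the CDS calls were added after their values were seen.

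Results were recomputed with all lengths, both replicates required, each nuclease alone, a score of at least 10, equal list sizes, the CDS alone, the transcript with the longest CDS, unshared positions, changes of 2 and 10 points, and each replicate left out. For intronic calls and day 4 against day 2, alternatives were chosen after seeing the data. The counting was tested on simulated data. Analyses used Python 3.11.15, numpy 2.4.6, pandas 2.3.3 and matplotlib 3.10.9. Columns of the authors' own comparisons were not present, and structure-only libraries were not analysed on their own.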

Additional observations from a re-analysis of the deposited data

Results flagged for a closer look

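Ube2g1, an E2 for chains linked through lysine 48, moved in opposite directions with the 2 nucleases. From ssRNase calls its exonic coverage was 8.01% and 5.29% at day 0 and 4.74% and 0% at day 4, a difference of -4.28 points that was below 0 in all 4 pairs of replicates. From dsRNase calls it was 7.53% and 4.59% at day 0 and 9.74% and 10.1% at day 4, a difference of 3.87 points that was above 0 in all 4 pairs. The difference between the nucleases was not tested. With 2 replicates a group, no sample could be tested as standing apart from its group.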

How the results depend on the processing

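No paired analysis was possible because the results come from no test and the labels link no replicate of one day to a replicate of another. Ube2o and Ube2l6 were called higher at day 4 than at day 0 under all 15 alternatives that bear on that comparison. The number of Ube2 genes higher at day 4 than at day 0, 4 as reported, was 2 where calls of both replicates were required (which makes the replicates equal, so that the size alone decides), 2 with ssRNase calls only, 10 over the CDS, 9 over the transcript with the longest CDS, 12 with a limit of 2 points and 2 with a limit of 10 points. The number lower, 2 as reported, was 1 with both replicates required, 1 with ssRNase, 0 with dsRNase, 1 with a score of at least 10, 8 over the CDS, 1 over the transcript with the longest CDS, 4 with 2 points and 0 with 10 points. Without single replicates these numbers ran from 4 to 7 and from 2 to 4, against 13.1% to 16.3% and 11.1% to 13.4% of all genes. The shares of all genes with a PPS under the same alternative, higher and lower, were 15.8% and 10.8% with both replicates required, 7.54% and 7.23% with ssRNase, 10.1% and 6.68% with dsRNase, 15.0% and 10.9% with a score of at least 10, 21.9% and 19.1% over the CDS, 18.5% and 15.1% over the transcript with the longest CDS, 24.8% and 20.6% with 2 points and 5.03% and 4.16% with 10 points. Ube2h was called higher with all lengths, with dsRNase only, without day 0 replicate 1, without day 4 replicate 1 and with a limit of 2 points.

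For day 2 above day 0, 0 genes as reported became 4 over the CDS, 2 over the transcript with the longest CDS, 1 at unshared positions and 1 with 2 points. For day 2 below day 0, 8 became 4 with both replicates required, 1 with ssRNase, 5 with dsRNase, 5 with a score of at least 10, 14 with 2 points and 1 with 10 points, and ran from 5 to 9 without single replicates. The median change from day 0 to day 4, 1.19 points, was -0.082 with ssRNase and -0.28 over the CDS. That from day 0 to day 2, -2.24 points, was -1.27 with all lengths, -1.43 with both replicates required, 0.00856 with ssRNase and -0.49 with a score of at least 10, and ran from -2.82 to -1.34 without single replicates. With ssRNase only, a choice made after seeing the data, intronic calls were 3 higher and 5 lower, and 2 genes were higher in exons at day 4 than at day 2. With dsRNase only, 0 were lower in introns, and without single replicates 3 to 7 were. For the counts of day 2, of introns and of day 4 against day 2, shares of all genes under the same alternative are not given. Shifts in these counts therefore cannot be set against a background. Ube2q1 turned to 0.829 points over the CDS, and Ube2v1 to -1.41 points with ssRNase and -2.76 points over the CDS. The causes were not tested. Of the other values for single genes called between day 0 and day 4, 62 moved by less than the spread between replicates and 13 by more. Equal list sizes moved no count of exonic calls against day 0. The lists do not carry depth, so a coverage of 0 sets no upper limit on protection.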
